A study of Mus musculus with 24 samples.

Results

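The genes described here are the core protein machinery of the microRNA pathway: Drosha and Dgcr8, Dicer1, the 4 Argonaute genes Ago1 to Ago4, and the 3 TNRC6 genes Tnrc6a, Tnrc6b and Tnrc6c. They were listed by name as pathway members, with earlier results of these data known. They are 10 of the 55364 genes listed for round spermatids and of the 55401 listed for CB RNA. All 10 passed the filter on low counts in both kinds of library. The mice carried a knock-in allele at Ddx4, which encodes an RNA helicase found in the granules of germ cells. Testes were dissociated in 2 enzymatic steps, and the labels name a genotype for every library: WT, DDX4 heterozygous knock-in or DDX4 homozygous knock-in. Round spermatid RNA was sequenced from WT, heterozygous and homozygous mice with 2 libraries each, made from 1 ug of total RNA of enriched fractions with a NEBNext Ultra kit. CB RNA, an abbreviation that the labels do not spell out, was sequenced from heterozygous and homozygous mice with 3 libraries each, made from 25 ng with a strand-specific Hieff dual-mode kit. No polyA selection or ribosomal depletion was applied to it, its cell type is given only as germ cells, and a WT group for it was not analysed here. Libraries carry numbers in the labels, but no label ties them to separate animals, so p-values cover only the scatter among libraries, which can be technical. The labels give no strain, age or pooling, and no controls other than the WT and heterozygous mice.

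In the microRNA pathway, Drosha and its partner Dgcr8 cut primary transcripts into hairpins in the nucleus, and Dicer1 cuts the exported hairpins into small duplexes. An Argonaute protein keeps 1 strand as a guide, and a TNRC6 protein bound to it recruits the deadenylases that repress and destabilise the target mRNA. Ago2 is the Argonaute best known for slicing a target, and in male germ cells Dicer1 and Drosha are both known to be needed for normal spermatid development.

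Round spermatid libraries held between 15.3 and 24.9 M counts, and CB libraries between 14.2 and 16.5 M. Levels are CPM, normalised read counts scaled to a common library total with TMM factors, unless TPM, which is also scaled to transcript length, is named. Ddx4 itself was at 443 and 521 CPM in the WT round spermatid libraries, 406 and 403 in the heterozygous and 121 and 130 in the homozygous ones. In CB RNA it was at 277, 312 and 365 CPM in the heterozygous and 303, 306 and 244 CPM in the homozygous libraries, which overlap. Of 14 round spermatid markers (such as Acrv1, Tnp1 and Prm1), none was at 0 in any library. The same held for 14 pachytene spermatocyte markers, so presence alone cannot verify the labelled cell type. In the round spermatid libraries the spermatocyte markers summed to 2662 to 2989 CPM. WT library 1 stood apart. It had 19.3% of its counts in genes shorter than 1000 bases, against 11.3 to 12.7% in the other round spermatid libraries, and its spermatid markers summed to 22321 CPM against 10623 to 11394. All 10 microRNA pathway genes were lower in it than in WT library 2, by a median log2 ratio of -0.96, where genes of at least 5000 bases had a median of -0.75 and all genes one of -0.00. Heterozygous CB library 1 also stood apart, with a spermatid marker sum of 1970 CPM against 1341 and 1480 in the other heterozygous and 1100 to 1147 in the homozygous libraries. In bulk RNA, fewer cells of a type and less RNA per cell cannot be told apart.

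The sequences upstream of Tnrc6b and Ago1 are shown first, because these were the genes with the clearest differences between genotypes in both kinds of RNA. RefSeq (GRCm38.p6, the assembly of mm10) annotates 2 start sites for Tnrc6b on the plus strand. The first 250 bases upstream lie at chr15:80711063-80711312 and the second at chr15:80798360-80798609. It also annotates 2 overlapping starts for Ago1 on the minus strand, of which the one with the window chr4:126468584-126468833 is printed. Capitals mark 3 short words. The first is CCAAT, read on the other strand as ATTGG. The second is TGACG, with CGTCA on the other strand, and the third is the palindrome CACGTG.
Tnrc6b, first start: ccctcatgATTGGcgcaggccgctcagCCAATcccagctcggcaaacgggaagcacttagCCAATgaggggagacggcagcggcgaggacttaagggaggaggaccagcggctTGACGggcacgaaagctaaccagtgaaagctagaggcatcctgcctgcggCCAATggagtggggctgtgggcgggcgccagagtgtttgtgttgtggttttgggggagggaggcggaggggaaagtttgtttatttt
Tnrc6b, second start: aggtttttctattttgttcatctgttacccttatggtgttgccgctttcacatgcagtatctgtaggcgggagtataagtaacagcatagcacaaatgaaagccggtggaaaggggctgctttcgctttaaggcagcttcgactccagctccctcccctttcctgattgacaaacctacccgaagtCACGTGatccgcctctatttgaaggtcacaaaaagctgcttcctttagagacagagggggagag
Ago1: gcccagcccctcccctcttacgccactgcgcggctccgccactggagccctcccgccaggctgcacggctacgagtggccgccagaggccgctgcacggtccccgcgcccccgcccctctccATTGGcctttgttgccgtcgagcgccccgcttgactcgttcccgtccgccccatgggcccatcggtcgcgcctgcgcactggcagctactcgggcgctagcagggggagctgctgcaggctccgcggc
The first Tnrc6b window held 4 copies of CCAAT and 1 of TGACG, counted on both strands, and no CACGTG. The second held 1 CACGTG and neither of the others. The Ago1 window held 1 CCAAT and, unmarked, 2 copies of GGGCGG, which is CCGCCC on the other strand. These short words are common: of the 32851 windows of 250 bases in the table, 33.8% held CCAAT, 32.7% GGGCGG, 17.8% TGACG and 6.02% CACGTG on either strand. TGACGTCA, which contains TGACG and is held by 1.55% of windows, and TATAAA, held by 12.4%, were in none of the windows of the 9 genes with an entry. Outside these 2 genes, CCAAT matched 4 times in Dgcr8, 3 times in Drosha and 1 time in Dicer1. GGGCGG matched 5 times in Ago4, 4 times in Ago3 and 1 time each in Dgcr8 and Dicer1. The first Tnrc6b window and the Ago1 window both held CCAAT and GGGCGG, but so did those of Dgcr8 and Dicer1. The second Tnrc6b window shared no searched word with Ago1. Matches are given as a description of the letters only.

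Compared per length, Tnrc6b and Tnrc6c had the highest mean TPM of the 10 in every group, and the lowest was that of Ago2 in round spermatids and Ago1 in CB RNA. Tnrc6a held rank 6 in WT and rank 5 in heterozygous and homozygous round spermatids, below Drosha and Dgcr8 in each. In WT round spermatids Tnrc6b averaged 8.23 ± 2.16 TPM and Tnrc6c 7.47 TPM, with 3.93 TPM in its lower library, while Ago1 averaged 0.38 ± 0.31 TPM and Ago2 0.17 ± 0.042 TPM (SD, n = 2 libraries each). The 8 genes from Tnrc6b down to Dicer1 each overlapped their neighbour in that order, so only the step from Dicer1, at 1.23 ± 0.65 TPM, down to Ago1 was clear of the scatter. In homozygous round spermatids Tnrc6b reached 35.6 ± 4.26 TPM and stood clear of Tnrc6c at 12.5 ± 1.58 TPM, and Ago1 reached 3.42 ± 1.07 TPM, within the range of Ago3 and Ago4. Ago2 remained last there at 0.395 ± 0.30 TPM.

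The order in CB RNA was different for Ago2. It averaged 27.4 ± 1.39 TPM in the heterozygous and 44.2 ± 5.58 TPM in the homozygous libraries, and held rank 6 and rank 4 of the 10 (SD, n = 3). In the heterozygous libraries Tnrc6c, at 137 ± 12.1 TPM, lay above Tnrc6b, at 84.0 ± 15.5 TPM. In the homozygous libraries Tnrc6b, at 192 ± 2.74 TPM, lay above Tnrc6c, at 180 ± 0.869 TPM, with no overlap in either genotype. Ago1 was lowest in both, at 8.81 ± 0.081 and 16.3 ± 2.79 TPM, each clear of the next gene, Ago3. Kit and RNA input differed between the 2 kinds of library, so no level was tested between them.

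Within the TNRC6 family, Tnrc6b held 32.0 ± 2.61% of the summed TPM in heterozygous CB RNA and 46.0 ± 0.151% in homozygous CB RNA. In round spermatids its share was 56.3 and 39.4% in WT libraries 1 and 2, 46.5 and 46.2% in the heterozygous and 68.4 and 67.8% in the homozygous ones. Among the Argonautes, Ago1 held 3.77 and 10.6% in the WT, 11.7 and 9.33% in the heterozygous and 33.1 and 32.1% in the homozygous round spermatid libraries. Homozygous shares of both genes lay above all other round spermatid libraries. TPM depends on how counts are split among transcripts: Ago3, the leading Argonaute in WT round spermatids at 2.80 ± 0.304 TPM, owed 1.28 ± 0.70 TPM to a 613-base transcript that held 10.1% of its counts, while its 15595-base transcript, with 74.9% of the counts, was at 0.215 ± 0.15 TPM.

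**Figure D1:**
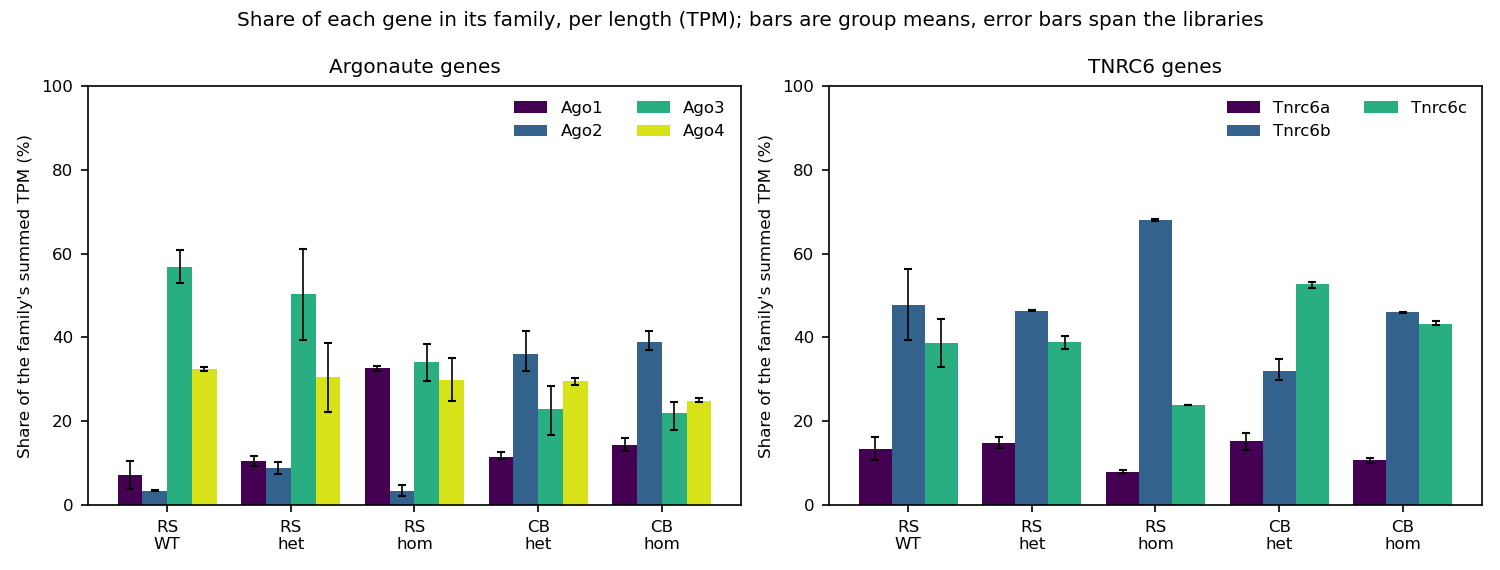
Share of each gene (y axis, percent) in the summed TPM of the Argonaute genes (left) and TNRC6 genes (right), by group: round spermatid (RS) and CB RNA, n = 2 libraries for each RS group and 3 for each CB group. Bars are means and error bars span the libraries; Tnrc6b held 68.4 and 67.8% of its family in the homozygous RS libraries and Ago1 33.1 and 32.1% of its own.

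Genotype differences were tested with edgeR over all genes, to ask which of these genes differ in level with the Ddx4 allele. In CB RNA, Tnrc6b, Ago2 and Ago1 were higher in the homozygous than in the heterozygous libraries, by 1.87-, 1.56- and 1.5-fold. These were 3 of the 10 genes, with none lower, against 1.16% of the 19335 genes tested that were called higher and 0.559% called lower, together 1.72%. In round spermatids, Tnrc6b alone of the 10 was called in the homozygous against the WT libraries, 4.20-fold higher, where 2.86% of 17809 genes were called (2.39% higher, 0.472% lower). That is 426 genes higher and 84 lower. When the trend of fold change with transcript length was removed, the split was 1363 higher and 1077 lower, and Ago1 was called beside Tnrc6b.

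None of the 10 was called between homozygous and heterozygous round spermatids, where 1.73% of genes were called (1.36% higher and 0.371% lower, or 242 and 66 genes, and 1035 and 678 genes with the length trend removed). 3 of the 10 had an unadjusted p under 0.05 there, as did 2969 of the 17809 genes tested. Between heterozygous and WT round spermatids, edgeR called 0% of the 17809 genes and none of the 10. At an unadjusted p under 0.05 it had 1296 genes, Tnrc6b among them as the only one of the 10, and DESeq2 called 5 genes and none of the 10. The round spermatid comparisons share libraries and are not independent of each other.

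The median log2 difference of the 10 genes was 0.16 in CB RNA, against -0.00 over all genes tested. It was 0.73 for homozygous against WT round spermatids, 0.59 for heterozygous against WT and 0.14 for homozygous against heterozygous, each against -0.00 or -0.01 over all genes. Genes of at least 5000 bases had medians of 0.33, 0.45 and -0.10 in those 3 comparisons and of 0.09 in CB RNA. The 10 genes lay between the 51.6th and the 99.0th percentile of length among the genes tested in round spermatids, and WT library 1 was low in long genes, as given above. All 10 were above 0 in homozygous against WT and all 10 in heterozygous against WT, as were 50.0 and 49.3% of all genes. In homozygous against WT, 7 had every homozygous library above every WT library, as did 26.7% of all genes (25% lay lower). Between heterozygous and WT, 6 of the 10 lay higher without overlap and none lower, against 22.5 and 22.1% of all genes. Of homozygous against heterozygous spermatids, 4 lay higher and 1 (Dicer1) lower, against 32.6 and 32% of all genes. In CB RNA 6 of the 10 had every homozygous library above every heterozygous one and none the reverse, as did 11.5 and 9.78% of all genes.

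**Figure D2:**
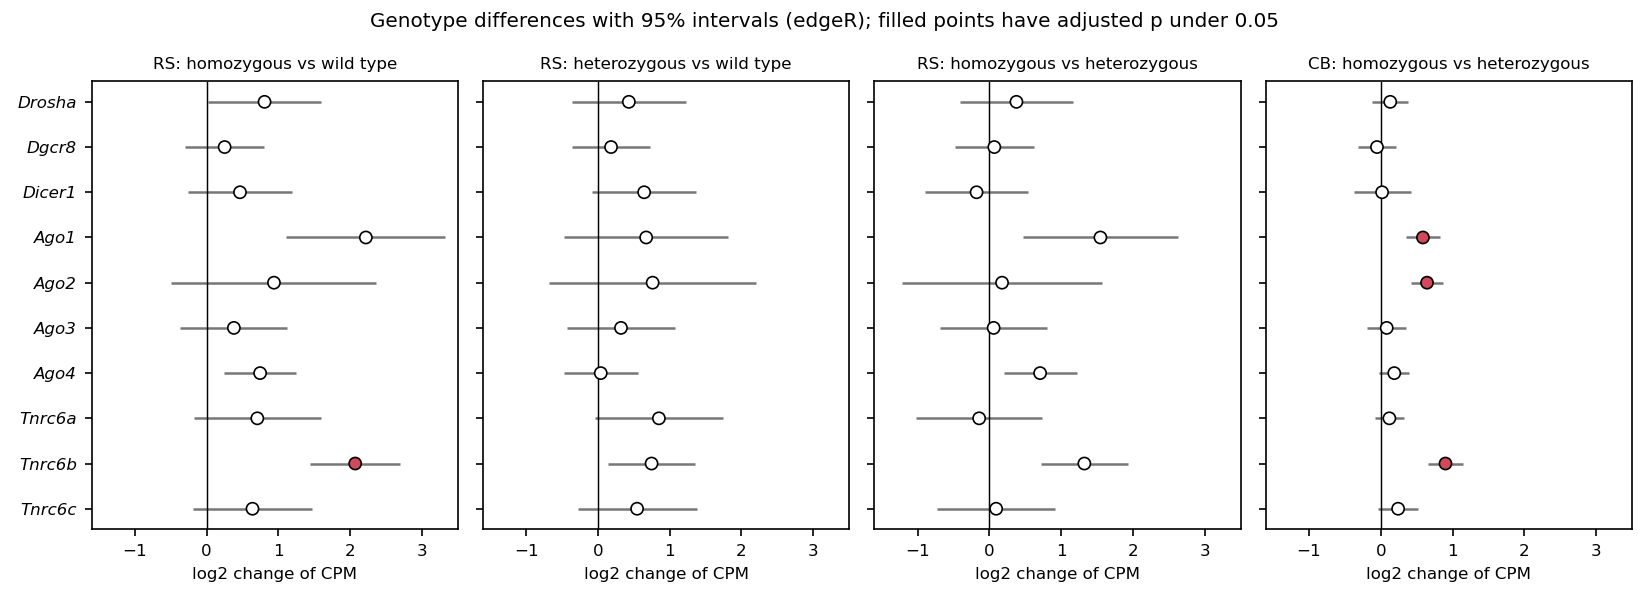
Log2 differences of normalised counts (x axis) with 95% intervals for the 10 genes (rows) in the 4 genotype comparisons, edgeR quasi-likelihood fit; filled points had an adjusted p under 0.05. Tnrc6b was called in the first and the last panel, and Ago1 and Ago2 in the last.

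The nuclear cutting enzyme Drosha was at 9.26 and 19.4 CPM in WT, 19.5 and 19.3 in heterozygous and 25.2 and 25.3 in homozygous round spermatid libraries. The homozygous pair lay above all others, and WT library 1 lay below all others. The log2 difference of homozygous against WT was 0.81 (SE 0.33, edgeR adjusted p = 0.212), and that against heterozygous 0.38 (SE 0.32, adjusted p = 0.640). The CB libraries held 53.7, 66.9 and 67.4 CPM in heterozygous and 68.7, 67.7 and 69.7 in homozygous libraries, a log2 difference of 0.13 (95% interval -0.12 to 0.38). The gene spans chr15:12824804-12935291.

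Dgcr8, the RNA-binding partner of Drosha, lies at chr16:18253948-18289251 and was at 8.77 and 12.7 CPM in WT, 12.4 and 12.1 in heterozygous and 14.2 and 11.4 in homozygous round spermatids. The 3 genotypes overlap. In CB RNA the heterozygous libraries were at 36.9, 46.5 and 46.8 CPM and the homozygous at 43.3, 40.5 and 41.7, within that range (log2 difference -0.05, interval -0.32 to 0.21). By mean TPM, which differs in its scaling, the ratio of homozygous to heterozygous CB libraries was 1.25 rather than 0.964 by CPM. The end of Dgcr8 overlaps that of the tRNA methyltransferase gene Trmt2a by 825 bases, and reads of the 2 genes cannot be told apart there where a library kit does not keep the strand. It also hosts the microRNA hairpin genes Mir1306 and Gm24572, both listed at 0 in all 12 RNA libraries.

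Dicer1, at chr12:104687740-104751968, was at 2.72 and 5.02 CPM in WT, 5.99 and 6.22 in heterozygous and 5.50 and 5.29 in homozygous round spermatids. The homozygous libraries lay between the WT and the heterozygous ones, with log2 differences of 0.47 (SE 0.30, adjusted p = 0.392) and -0.18 (SE 0.30, adjusted p = 0.827). The heterozygous and homozygous CB values were 31.2, 50.1 and 54.4 CPM and 46.9, 44.3 and 46.4 CPM. The homozygous values again lay inside the heterozygous range, and the log2 difference was 0.02 (interval -0.38 to 0.42). Heterozygous CB library 1 was the low one for Drosha, Dgcr8 and Dicer1 alike. In CB RNA the upper bounds of the 3 intervals were 0.38 for Drosha, 0.21 for Dgcr8 and 0.42 for Dicer1.

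Ago1, at chr4:126435012-126468707, gave the larger of the Argonaute differences in round spermatids. It was at 1.09 and 3.41 CPM in WT, 3.68 and 3.67 in heterozygous and 9.87 and 11.6 in homozygous libraries, so the homozygous pair stood clear of the other 4 libraries. The counts behind these were 20 and 83, 70 and 56, and 192 and 222 reads. The log2 difference was 2.22 against WT (SE 0.46, adjusted p = 0.0618) and 1.55 against heterozygous (SE 0.45, adjusted p = 0.158), neither past the threshold in the edgeR fit. In CB RNA Ago1 rose from 26.6, 26.7 and 26.0 CPM in heterozygous to 38.0, 37.9 and 43.3 CPM in homozygous libraries. All 3 homozygous libraries were higher, by 0.59 on the log2 scale (SE 0.11, edgeR adjusted p = 0.0247).

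The assignment of Ago1 counts to transcripts differed between libraries. All of its WT counts were on a 7065-base transcript, which held 1.09 and 3.41 CPM there, 3.68 and 0.869 CPM in heterozygous and 0 and 0.717 CPM in homozygous libraries. A pair of 7227-base transcripts with identical values held 33.8 ± 7.10% of the counts each in homozygous libraries (SD, n = 2) and were listed at 0 in WT. In CB RNA the 7065-base transcript varied from 0 to 72.8% of the counts among the 3 heterozygous libraries. With that scatter among replicates, no transcript difference of Ago1 was tested.

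Ago2, the slicing Argonaute, at chr15:73101625-73184947, was at 0.60 and 2.30 CPM in WT, 2.63 and 2.42 in heterozygous and 2.11 and 3.62 in homozygous round spermatids. These rest on 11 to 69 reads a library, and the homozygous range covers the heterozygous one. The log2 difference of homozygous against heterozygous was 0.18, with an interval of -1.22 to 1.58 that leaves a wide range, and its ratio was 1.13 by CPM and 0.731 by TPM. In CB RNA Ago2 rose from 107, 126 and 127 CPM in heterozygous to 191, 181 and 191 CPM in homozygous libraries. The groups did not overlap, and the log2 difference was 0.64 (SE 0.10, edgeR adjusted p = 0.0130). At least 93.7% of its counts in every library were on a single 13800-base transcript. The annotated noncoding gene Gm31725 lies inside Ago2, and it was not analysed here.

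The remaining Argonautes, Ago3 and Ago4, did not pass the test in any comparison. Ago3, at chr4:126326994-126431670, was at 2.62 and 4.81 CPM in WT, 4.84 and 4.52 in heterozygous and 4.62 and 5.14 in homozygous round spermatids. In CB RNA it was at 49.1, 52.8 and 61.9 CPM and at 60.1, 61.5 and 52.0 CPM, which overlap (log2 difference 0.08, interval -0.19 to 0.35). Ago4, at chr4:126489487-126533586, was at 8.83 and 9.87 CPM in WT, 11.2 and 7.99 in heterozygous and 14.7 and 16.7 in homozygous round spermatids, and the homozygous pair lay above the rest. Its log2 difference was 0.75 against WT (SE 0.21, adjusted p = 0.118) and 0.71 against heterozygous (SE 0.21, adjusted p = 0.167). In CB RNA Ago4 was at 68.1, 71.4 and 71.3 CPM against 79.4, 77.6 and 83.2 CPM, with no overlap and a log2 difference of 0.19 (SE 0.094, adjusted p = 0.395).

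Tnrc6b, at chr15:80711313-80941086, was the only one of the 10 called in round spermatids. Among those called in CB RNA it had the largest difference. The estimates of Ago1 in round spermatids were larger, 2.22 against WT and 1.55 against heterozygous, but were not called. Tnrc6b was at 17.8 and 30.1 CPM in WT, 41.2 and 39.3 in heterozygous and 94.3 and 107 in homozygous round spermatid libraries. Each genotype lay above the one before it with no overlap. The homozygous libraries were 2.07 higher on the log2 scale than WT (SE 0.26, edgeR adjusted p = 0.0191) and 1.32 higher than heterozygous (SE 0.25, adjusted p = 0.0650), and the heterozygous ones 0.75 above WT (SE 0.25, adjusted p = 0.519). In CB RNA Tnrc6b rose from 188, 169 and 156 CPM in heterozygous to 312, 306 and 341 CPM in homozygous libraries, by 0.90 on the log2 scale (SE 0.11, edgeR adjusted p = 0.00372).

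The other TNRC6 genes differed less. Tnrc6a, at chr7:123031101-123195296, was at 6.16 and 13.7 CPM in WT, 20.0 and 15.9 in heterozygous and 14.8 and 17.7 in homozygous round spermatids, with log2 differences of 0.71 against WT (SE 0.37, adjusted p = 0.30) and -0.14 against heterozygous (adjusted p = 0.894). In CB RNA it was at 83.7, 85.4 and 86.7 CPM against 94.8, 89.2 and 94.2 CPM, a log2 difference of 0.12 (interval -0.08 to 0.32). Tnrc6c, at chr11:117653703-117763439, was at 31.0 and 68.1 CPM in WT, 72.1 and 72.8 in heterozygous and 72.1 and 82.5 in homozygous round spermatids, with log2 differences of 0.64 and 0.10 (adjusted p = 0.314 and 0.924). In CB RNA it was at 590, 472 and 447 CPM against 587, 581 and 616 CPM. Heterozygous library 1 reached the homozygous range, and the log2 difference was 0.24 (SE 0.12, adjusted p = 0.408). Without that library it was 0.36 (adjusted p = 0.00433), where 11% of all genes were called against 1.72% with it.

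**Figure D3:**
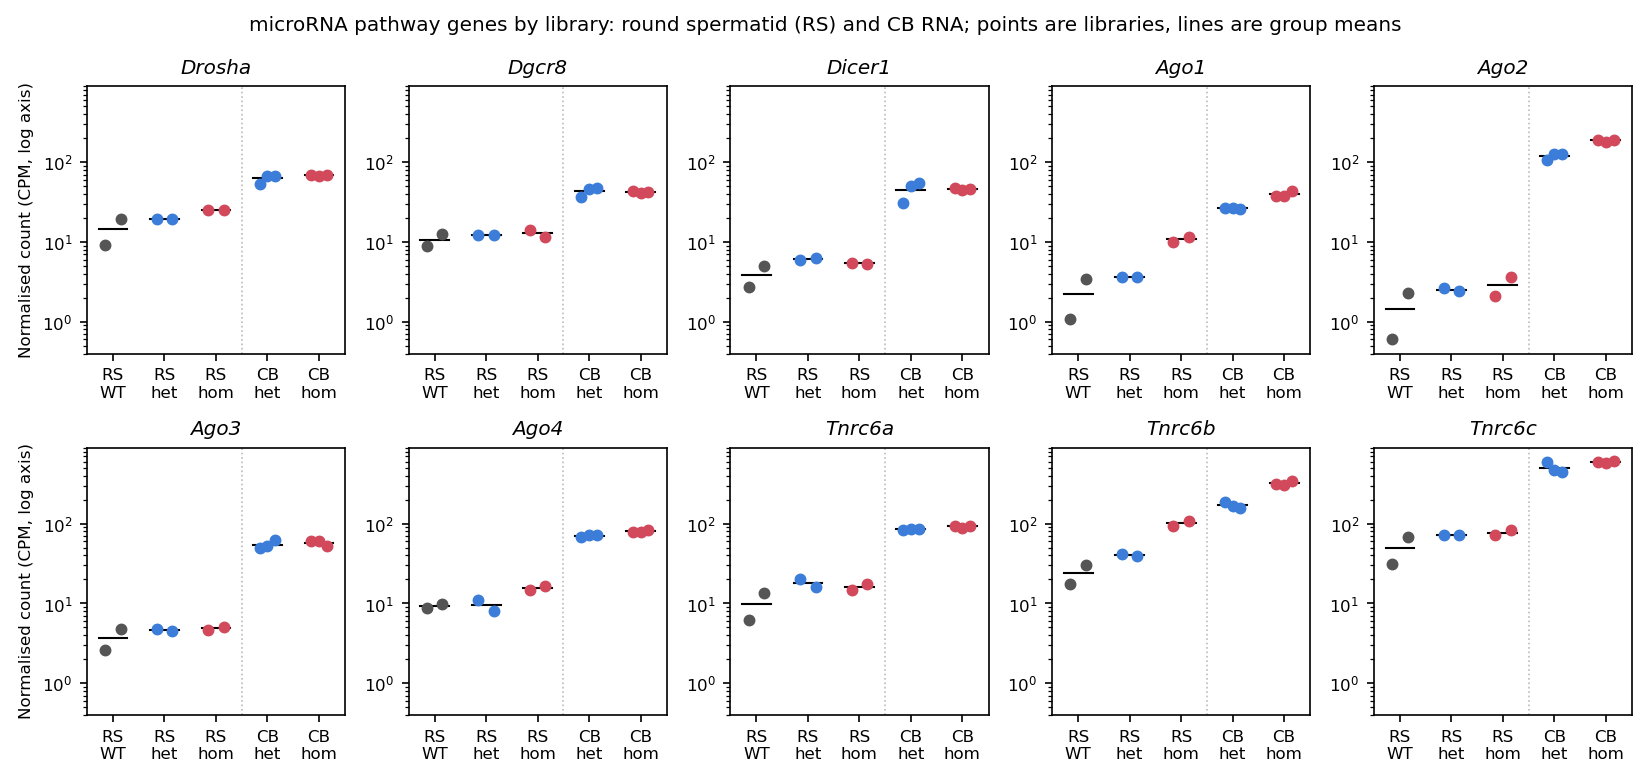
Normalised counts (y axis, CPM on a log axis) of the 10 genes in each of the 12 RNA libraries, grouped by kind of RNA (RS, round spermatid) and genotype; points are libraries and black lines group means. Tnrc6b, Ago1, Ago4 and Drosha lay higher in every homozygous library than in the other genotypes in both kinds of RNA. The lower WT point of every gene is WT library 1.

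The rise of Tnrc6b was not spread evenly over its 10 listed transcripts. The longest, of 17332 bases (ENSMUST00000067689), was at 48.5, 53.2 and 57.1 CPM in heterozygous and 53.5, 48.1 and 51.6 CPM in homozygous CB libraries, a ratio of the means of 0.965. All other transcripts together were at 140, 115 and 99.2 CPM in heterozygous and 258, 258 and 289 CPM in homozygous libraries, a ratio of 2.27. The share of the longest was thus 31.3 ± 5.39% in heterozygous and 16.0 ± 1.05% in homozygous CB RNA (SD, n = 3).

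Among the shorter transcripts, that of 5215 bases (ENSMUST00000228071) went from 24.9, 17.4 and 15.3 CPM to 64.6, 66.1 and 69.3 CPM. The 3407-base transcript (ENSMUST00000228124) went from 61.8, 52.2 and 42.9 CPM to 112, 111 and 124 CPM, and the 3240-base transcript (ENSMUST00000226857) from 48.7, 44.5 and 38.8 CPM to 78.6, 77.7 and 94.5 CPM. For each of these 3, no homozygous CB library overlapped a heterozygous one.

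In round spermatids the longest Tnrc6b transcript held little of the gene's counts in any genotype: 2.59 and 5.16% in WT, 3.56 and 3.28% in heterozygous and 1.86 and 2.16% in homozygous libraries. Its levels were 0.46 and 1.55 CPM in WT, 1.46 and 1.29 in heterozygous and 1.76 and 2.31 in homozygous libraries. The means were 1.01, 1.38 and 2.03 CPM in that order. At levels this low, and with the low WT library 1, ratios are imprecise and are not set against that of CB RNA. The homozygous mean was 2.02 times that of WT and 1.48 times that of heterozygous spermatids. There the other transcripts together were at 17.3 and 28.5 CPM in WT, 39.7 and 38.0 in heterozygous and 92.6 and 105 in homozygous libraries, 4.31 times the WT mean and 2.54 times the heterozygous mean. The 3407-base transcript was the largest in all 3 genotypes, at 9.21 and 17.3, 21.4 and 22.2, and 48.3 and 56.9 CPM. The counts of single transcripts are estimates of how shared reads divide, so they are described without a test. The files do not say which transcripts code for the full protein.

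**Figure D4:**
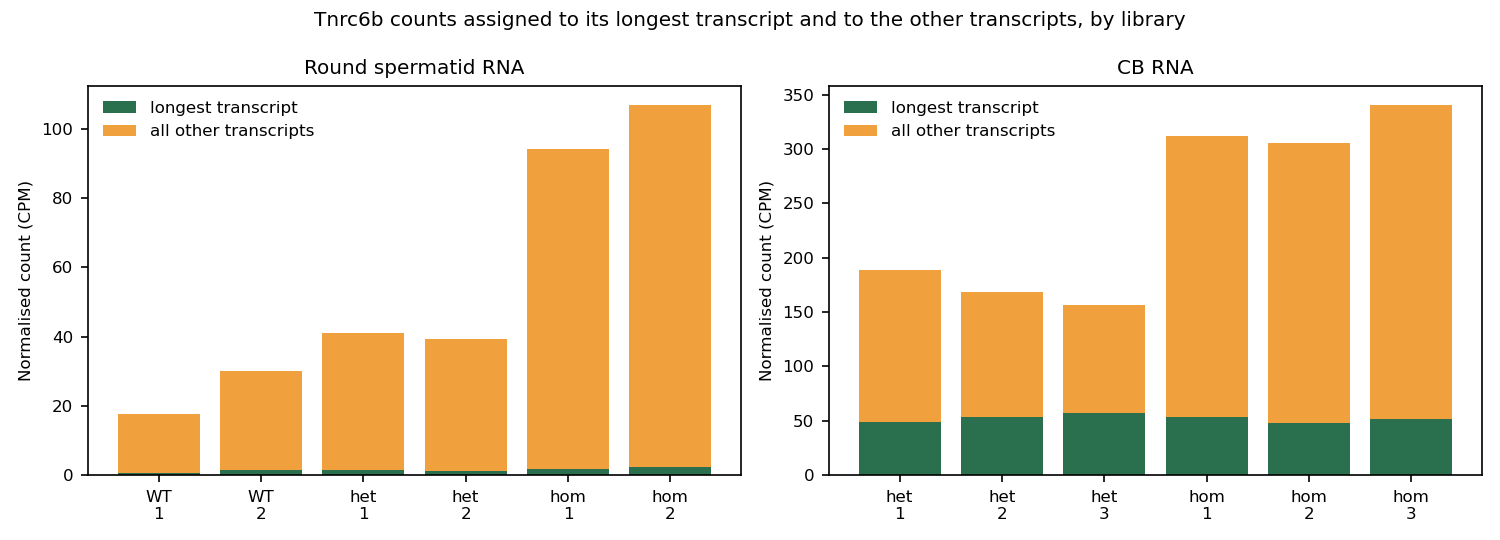
Normalised counts of Tnrc6b (y axis, CPM, from 0) in each library (x axis, genotype and number), split into the longest transcript (green) and all other transcripts (orange), for round spermatid (left) and CB RNA (right). The green part stayed between 48.1 and 57.1 CPM in CB RNA while the orange part was 99.2 to 140 CPM in heterozygous and 258 to 289 CPM in homozygous libraries.

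Whether the homozygous difference from heterozygous was the same size in CB RNA and round spermatids was tested as an interaction. None of the 10 was called, where 0.209% of 22002 genes were (0.0636% higher, 0.145% lower in CB RNA). The nearest was Ago1, whose difference was smaller in CB RNA (log2 -0.90, SE 0.38, edgeR adjusted p = 0.519, unadjusted p = 0.0332). For Tnrc6b the interaction was -0.37 (interval -0.92 to 0.19) and for Ago2 0.53 (interval -0.42 to 1.48). These intervals do not show that the effects were alike. Without the WT libraries in the fit, Ago1 was called lower (-0.91, adjusted p = 0.0342), with 1.24% of all genes called. It was also called without WT library 1 (-0.99, adjusted p = 0.0277) or WT library 2 (-0.99, adjusted p = 0.0276), with 0.805 and 0.801% of all genes called.

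Calls in round spermatids depended on single libraries. The Tnrc6b difference of homozygous from WT kept a log2 value of 1.74 to 2.51 over the 15 alternatives run, but its adjusted p was 0.0886 and 0.0910 without heterozygous library 1 or 2, 0.193 and 0.209 without homozygous library 1 or 2, and 0.0925 with the 4 compared libraries alone. Without WT library 1, 4 of the 10 were called (Tnrc6b, Ago1, Ago4 and Drosha) beside 26.4% of all genes, and without WT library 2 all 10 were called beside 45.1% of all genes. With WT library 2 left out, 9 of the 10 (all but Ago4) were also called between heterozygous and WT, beside 42% of all genes. Between homozygous and heterozygous libraries, the same 4 genes as without WT library 1 were called when WT library 1, WT library 2 or both were out of the fit, beside 30.1, 29.2 and 32.3% of all genes. For Tnrc6b the log2 difference there was 1.32 in each of these fits.

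In CB RNA, Tnrc6b was called in all 14 alternatives, with log2 values of 0.83 to 0.97 and a largest adjusted p of 0.0377. Ago2 was called in 8 of the 14, and its adjusted p was 0.0503 without heterozygous library 3 and 0.120, 0.0832 and 0.0873 without homozygous library 1, 2 or 3. The replicate block, which rests on the library numbers alone, gave 0.0503 for Ago2, and 0.110 with the length trend removed as well. Ago1 was called in 6 of the 14: its adjusted p was 0.0887 and 0.104 without heterozygous library 2 or 3, 0.138, 0.113 and 0.148 without homozygous library 1, 2 or 3, 0.0649 with the length trend removed, 0.0995 with the block and 0.195 with both. The log2 values of both stayed between 0.48 and 0.68.

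Marker sums of several other cell types moved with genotype as well. Those of the 10 spermatogonium markers lay between 73.9 and 84.6 CPM in all round spermatid libraries, with Nanos3 at 0 in 2, and the spermatocyte sums are given above. Summed over the 9 immune markers, of which none was at 0, round spermatid levels were 22.3 and 18.2 CPM in WT, 29.7 and 28.6 in heterozygous and 38.1 and 37.9 in homozygous libraries, the same order as Tnrc6b. The 8 peritubular and vascular markers summed to 22.3 and 24.8 CPM in WT and 30.6 and 31.0 CPM in heterozygous libraries, and to 40 CPM in each homozygous one, with none at 0. The 8 Leydig markers summed to 8.12 and 5.51, 9.99 and 8.32, and 16.8 and 15.3 CPM, with Lhcgr at 0 in 3 libraries and Hsd17b3 in 1. The 12 Sertoli markers went the other way, from 59.1 and 55.7 in WT and 53.4 and 54.0 in heterozygous to 31.1 and 31.8 CPM in homozygous libraries, with Fshr at 0 in 4 libraries and Sox9, Amh and Rhox5 in 1 each.

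Against WT, 2 of 9 immune markers, 2 of 7 tested peritubular and vascular and 1 of 4 tested Leydig markers were called higher in homozygous spermatids, and 2 of 8 tested Sertoli markers lower, beside 2.39% of all genes called higher and 0.472% lower. Single markers did not all follow their sums. Log2 differences were above 0 for 9 of 9 immune and 4 of 7 peritubular and vascular markers. They were above 0 for 2 of 4 Leydig and 1 of 8 Sertoli markers. Of the 14 spermatid markers, 1 was above 0 in homozygous against WT (median -0.39) and 1 in heterozygous against WT (median -0.24). In homozygous against heterozygous, 3 were above 0 (median -0.16), and none was called in these comparisons. In CB RNA, 3 of the 14 spermatid and 1 of the 14 spermatocyte markers were called lower in homozygous libraries, beside 0.559% of all genes. Log2 differences there were above 0 for 1 of the 14 spermatid and 8 of the 14 spermatocyte markers. Leydig markers there summed to 91.0, 147 and 149 CPM in heterozygous and 173, 165 and 176 in homozygous libraries, and immune markers to 7.24, 13.6 and 12.8 CPM and 14.9, 16.5 and 14.3 CPM, with none of either list at 0. Of these, 0 of 8 Leydig and 1 of 7 tested immune markers were called higher, beside 1.16% of all genes. Sertoli markers summed to 89.3, 152 and 142 CPM in heterozygous and 103, 110 and 107 CPM in homozygous libraries. The part of these cells in the differences of Tnrc6b, Ago1 and Ago2 was not tested.

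Of 33 factors of microRNA processing, export and turnover (such as Xpo5, Tarbp2 and Ddx5), all of them tested, 1 was higher and none lower in homozygous against WT round spermatids, with a list median of 0.07. Over all genes, 2.39% were called higher and 0.472% lower there, so 1 of 33 is near the background. Against heterozygous 1 was again higher and none lower, with a median of -0.05, beside 1.36 and 0.371% of all genes. In both cases the gene called was Smad4, the common partner of the receptor-regulated SMAD proteins, which can associate with Drosha complexes. It was at 17.8 and 20.8 CPM in WT, 24.5 and 24.6 in heterozygous and 44.4 and 46.4 in homozygous libraries, and its log2 difference was 1.23 from WT (SE 0.15, edgeR adjusted p = 0.0165) and 0.89 from heterozygous (SE 0.14, adjusted p = 0.0459). In CB RNA none of the 33 was called, with a median of 0.06, where 1.72% of all genes were. Smad4 had a log2 difference of 0.37 there (adjusted p = 0.180).

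Of 29 partners and effectors downstream of Argonaute and TNRC6, all tested, 1 was higher and none lower in homozygous CB RNA, with a list median of 0.05. This too is near the background of 1.16% of all genes called higher and 0.559% lower. The gene called was Zfp36, which binds AU-rich elements and recruits deadenylases. It rose from 6.71 ± 0.818 CPM to 11.4 ± 0.684 CPM (SD, n = 3), by 0.77 on the log2 scale (SE 0.15, edgeR adjusted p = 0.0343). In round spermatids none of the 29 was called in any comparison, with medians of 0.06, 0.16 and -0.14 for homozygous against WT, heterozygous against WT and homozygous against heterozygous. None of either list was called in the comparison of heterozygous with WT or in the interaction.

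Across the 12 RNA libraries, with log2 CPM centred within each kind of RNA, Ago1 and Tnrc6b were the most alike pair of the 10 (Pearson r = 0.960), and Ago4 and Dicer1 the least (r = 0.179). These values describe libraries that share genotype, depth and the low WT library 1, so no p is given. Among 22001 other genes, those most like Ago2 were Rin1 (r = 0.985), Rere (r = 0.985) and Iars (r = 0.980), and 311 genes had an r over 0.9. Those most like Dicer1 were Dync2h1 (r = 0.979), Uba1y (r = 0.979) and Myo5a (r = 0.974), of 192 over 0.9. Many genes thus follow the same pattern over these libraries.

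The Ago2 locus also lies within a piRNA source. piRNAs are the germline small RNAs bound by PIWI proteins, relatives of the Argonautes described here. Of the 214 piRNA clusters counted in the small RNA libraries, 1 overlapped any of the 10 genes: pi-Eif2c2.1, named for the older symbol of Ago2, of the hybrid class. It spans chr15:73095849-73185186 (mm10) and covers the whole gene. In pachytene spermatocytes it took 0.260 and 0.260% of cluster reads in WT, 0.193 and 0.199% in heterozygous and 0.213 and 0.199% in homozygous libraries. In round spermatids it took 0.207 and 0.198%, 0.162 and 0.147%, and 0.253 and 0.244%.

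Homozygous spermatid shares of this cluster lay above both other genotypes, where the homozygous Ago2 mRNA overlapped the heterozygous. The direction turns with the measure: by read count the cluster held 29547 and 22531 reads in the homozygous spermatid libraries, fewer than the 49780 and 47418 in WT and the 35121 and 32539 in heterozygous. Reads over all clusters were 11.7 and 9.23 M in the homozygous spermatid libraries, against 21.7 to 24.1 M in the other spermatid ones. Most clusters did not overlap either: 55.6% lay higher and 32.2% lower in homozygous against WT spermatids, and 46.3 and 35.5% against heterozygous. For pi-Eif2c2.1 the log2 ratio of mean shares was 0.30 against WT, where the median over all clusters was 0.38. Against heterozygous it was 0.69, with a median of 0.18 over all clusters. The cluster ranked between 80 and 106 of 214 in every library. Its share is relative to reads on clusters and was described without a test.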

How the data were processed

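Per the file headers, the authors' RNA tables hold an expected count for each gene and transcript (an estimate that may be fractional), beside TPM and FPKM values. The deposited transcript tables also give each transcript's percent of its gene; shares printed here were recomputed from the expected counts. The deposited small RNA tables hold a whole read count for every piRNA cluster. The submitters' processing notes name Trim Galore and mm10 but no version. What quantified the reads is not stated in any source used here. FPKM served only to check the units.

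Expected counts per gene were rounded and tested with edgeR 4.0.16 (TMM factors, filterByExpr by group, quasi-likelihood F test) in R 4.3.3, with Benjamini-Hochberg adjustment over all genes tested and a threshold of 0.05. One fit held the 6 round spermatid libraries, another the 6 CB libraries, and a model of all 12 gave the interaction. The tests were run on simulated counts, in which only genes above a set mean CPM were changed. Of genes changed by 1 on the log2 scale, 61 of 112 were recovered for homozygous against WT round spermatids and 100 of 104 for CB RNA. Ago2 and Ago3 lay below that mean in round spermatids. The simulation drew the libraries of a group alike, with no low WT library 1 and no length trend. Recovery in the real libraries can therefore be lower. No pair of libraries of a group agreed within counting noise. Positions and promoter windows are from RefSeq on GRCm38.p6, which held windows for 9 of the 10 genes. The genes named are all 10 pathway genes and, from 2 further lists, every gene called. The genes, the lists and the motifs searched were chosen with earlier results of these data known. Alternatives were DESeq2 1.42.0, its size factors, no filter, a filter of 1 CPM in 2 libraries, unrounded counts, removal of the length trend, a replicate block, each library left out and the compared libraries alone.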

Additional observations from a re-analysis of the deposited data

How the results depend on the processing

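The number of all genes called moved with the settings too, and is given further down. Counts of the 10 genes are therefore not read as a result about these genes alone. The number of the 10 genes called in homozygous against WT round spermatids was 1. It was 2 with DESeq2, with no filter, with the length trend removed and with the replicate block and length trend together, 0 with the compared libraries alone, and 0 to 10 when 1 library was left out. For heterozygous against WT it was 0, and 0 to 9 with 1 library left out. For homozygous against heterozygous it was 0, then 2 with DESeq2, no filter, the length trend removed or the block with it, 4 with the compared libraries alone, and 0 to 4 with 1 library left out. In CB RNA it was 3, beside 1.72% of all genes, and 1 to 4 with 1 library left out, beside 0.256 to 11%. The interaction gave 0, 1 without the WT libraries, and 0 to 1 with 1 library left out. Labels give the same numbers to libraries of different genotypes. Same-numbered CB libraries correlated at 0.03, -0.28 and -0.30 in their deviations from the group mean, and not every library correlated best with its own number. In round spermatids the values were 0.38 for WT with homozygous, -0.23 for WT with heterozygous and -0.09 for heterozygous with homozygous. With 2 libraries a group the deviations mirror each other, so these values cannot show or exclude pairing. With the replicate block, 1 of the 10 genes was called in CB RNA (also 1 with the length trend removed as well), 1 in homozygous against WT and 0 in the other comparisons. Over all genes the block gave 163, 182 and 12 calls for CB RNA and for homozygous against WT and against heterozygous spermatids, against 332, 510 and 308 without it. DESeq2 gave 598, 1287 and 796, no filter 882, 1692 and 912, and removal of the length trend 274, 2440 and 1713. For the interaction, the block gave 2, DESeq2 144, no filter 191 and the length trend 93, against 46, and 269 without the WT libraries. The block with the length trend removed gave 165, 1979 and 1228, and the compared libraries alone 15 for homozygous against WT and 5577 against heterozygous. No gene of the 10 called in a main fit changed direction in that comparison in any alternative run. Genes not called there did so in some, such as Ago3, Dgcr8 and Drosha between heterozygous and WT. Ago2 in round spermatids rests on 11 to 69 reads a library, which limits its precision, and intervals cover the scatter of 2 or 3 libraries only.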
